A study of Cricetulus griseus with 24 samples.

Results

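Integrins and the proteins that tie them to actin were followed in LR73 cells, a hamster cell line that engulfs apoptotic cells. The genes were chosen by name as integrin alpha or beta subunits, talins, kindlins, vinculin, alpha-actinins, the ILK, PINCH and parvin complex, focal adhesion signalling proteins and LIM domain proteins that sit on actin bundles. Of 26776 gene names in the count tables, 58 matched, and 41 had a mean of at least 1 CPM (fragment counts scaled to a common library total) in 1 or more of 6 sample groups. They comprised 8 integrin alpha subunits, 2 beta subunits, 7 actin linkers or integrin activators, 4 members of the ILK complex, 4 signalling proteins, 14 LIM proteins and 2 proteins named after integrins that are not subunits, Itgb1bp1 and Itgb3bp.

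RNA was counted in 24 libraries, 4 per group. The first experiment had LR73 cells with apoptotic cells and cytochalasin D together, with cytochalasin D, with apoptotic cells, and alone as the control. The second had Slc12a2-deficient and wildtype LR73 cells, all given apoptotic cells for 2 h and then sorted for the dye CypHer5E, which lights up in engulfed targets. Apoptotic cells were human Jurkat T lymphoma cells treated with ultraviolet C at 1500 mJ and held for 4 h. For cytochalasin D, neither dose nor time is given in the sources used here, nor is how long apoptotic cells were present in the first experiment, how Slc12a2 was removed or how many clones were used. A sort is labelled only for the second experiment.

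Integrins are paired alpha and beta chains that bind matrix outside the cell. Inside, talin and kindlin switch them on, and vinculin, alpha-actinin and the ILK complex connect them to actin filaments. LIM proteins such as zyxin gather where the filaments are under tension, and paxillin, FAK and p130Cas pass the signal on. Several of these genes are targets of serum response factor and its cofactor MRTF, which binds unpolymerised actin and is set free when actin monomers are used up or bound by cytochalasin D.

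Totals of named genes were 8272232 to 18911353 counts per library in the first experiment and 22758587 to 28450594 in the second. Between 6 and 7 of 12 fibroblast markers reached 1 CPM in each group, and summed myeloid markers stayed between 1.31 and 4.12 CPM. Thy1, a defining fibroblast surface marker, was near absent throughout, at 0.0291 CPM at most. It had no count in cytochalasin D and Slc12a2-deficient libraries. Col1a1, another of these markers, was at 0.124 CPM at most. Slc12a2 stood at 25.3, 22.4, 24.7 and 26.1 CPM in the libraries labelled deficient, against 93.4, 91.2, 99.4 and 103 CPM in wildtype libraries, which leaves 25.5% of the wildtype level. The replicates are named biological replicates, with nothing on separate cultures, so the p-values measure the spread between these samples. In bulk RNA of this kind, fewer cells of a type and less RNA per cell cannot be told apart. On the first component of deviations from group means, library 4 of the control, cytochalasin D and combined groups lay lowest, at -10.0, -16.6 and -15.7, and library 1 of the cytochalasin D and combined groups highest, at 18.7 and 11.0. Counts are also given without the 3 lowest and without all 5 of these libraries, a choice made after seeing the data.

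All 41 members were tested in the first experiment and 39 in the second. The lowest that met the level were Itga8, at 1.00 CPM with cytochalasin D, and Actn2, at 1.05 CPM with apoptotic cells. Each met it in that group alone, so a difference from other groups was built into their selection. By plain library totals, without TMM factors, 40 genes met the level. Itga8 then missed it, with a highest group mean of 0.991 CPM, so its membership depends on the scaling. Just under the level were Itgb1bp2 with a highest group mean of 0.851 CPM, Fermt3 with 0.822 CPM and Itga10 with 0.678 CPM.

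Among the members, the chains of the fibronectin receptor were the most abundant integrin transcripts. Per kilobase of gene length, Itgb1, the shared beta 1 chain, stood highest of the 10 subunits in all 6 groups. Its level was 314 ± 4.72 CPM per kb with apoptotic cells and cytochalasin D, 289 ± 10.9 with cytochalasin D, 246 ± 3.94 with apoptotic cells and 255 ± 5.18 in the control (SD, n = 4 each). In the second experiment it was 307 ± 17.9 CPM per kb in Slc12a2-deficient cells and 367 ± 14.5 in wildtype cells. Itga5, the alpha chain that pairs with beta 1 to bind fibronectin, came next in all 6 groups, without overlap with its neighbours in the order.

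Itga5 made up 73.8% of the summed length-scaled level of the 8 alpha members with apoptotic cells and cytochalasin D, 72.6% with cytochalasin D, 66.9% with apoptotic cells and 63.9% in the control. In the second experiment its share was 63.8% in Slc12a2-deficient cells and 71.2% in wildtype cells. Itgav, the alpha chain of vitronectin receptors, was the next alpha chain in every group, between 11.3 and 17.9 CPM per kb. The laminin-binding chains Itga3 and Itga6 overlapped each other among the alpha chains in every group except wildtype. Itga2b, the platelet chain, and the collagen-binding chain Itga1 stood at or below 1.82 CPM per kb in all groups.

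**Figure D1:**
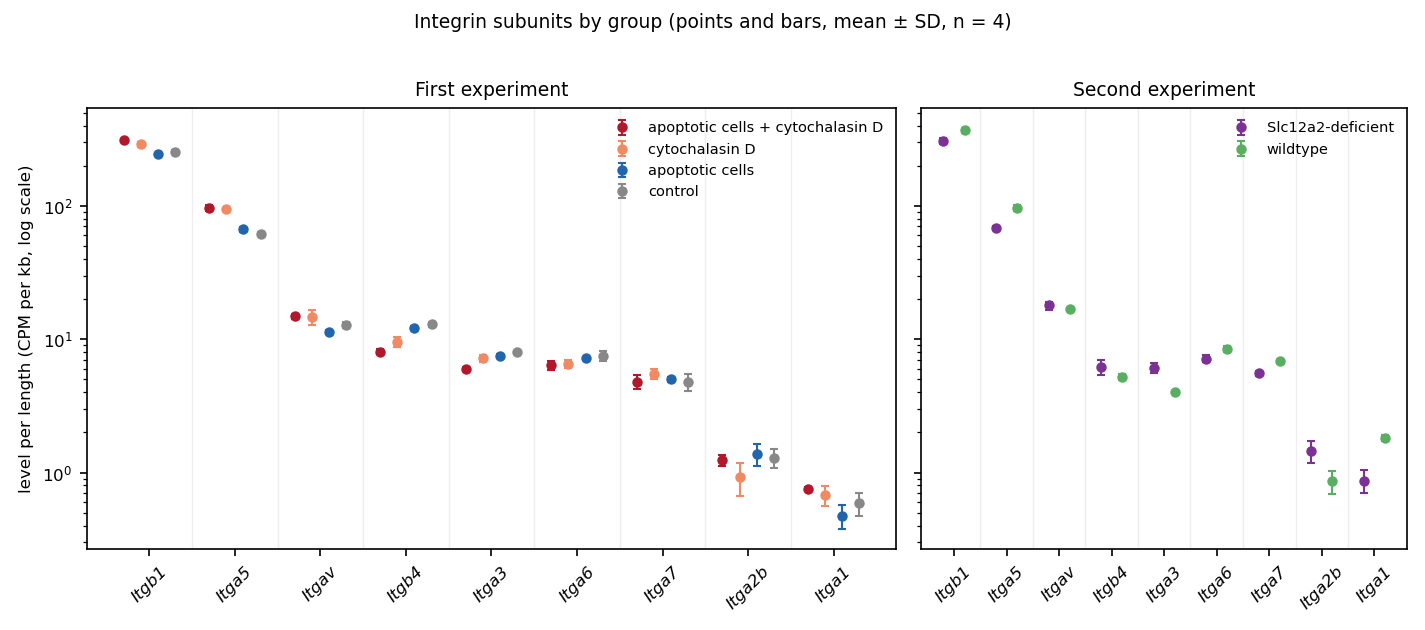
Mean level per gene length (CPM per kb, log scale) of 9 integrin subunits in each group, with SD over 4 libraries. Itgb1 and Itga5 stand above the other subunits in all 6 groups, and Itga5 sits at 96.1 and 94.2 CPM per kb in the 2 groups with cytochalasin D against 66.7 and 61.8 in the first experiment's groups without it, and at 68.7 in Slc12a2-deficient and 96.7 in wildtype cells.

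Cytochalasin D, which caps growing actin filaments and blocks engulfment, raised about as many members as it lowered or left without a call. By p-value, Pdlim5, Zyx and Csrp1 led the members. Against the control, 21 of 41 members rose and 4 fell (edgeR quasi-likelihood test, adjusted p under 0.05), where 13.5% of the 13106 genes tested rose and 12.8% fell. At least 2-fold higher were 8 members, against 1.29% of all genes. Without Itga8 and Actn2, whose differences were built into their selection, 20 of 39 members rose and 4 fell. Of the 39, 7 were at least 2-fold higher. The median log2 change was 0.20 over the members and 0.01 over all genes. Without the 3 lowest libraries 20 members rose and 3 fell, and without all 5 libraries 19 and 3. Summed over 12 fibroblast markers, libraries held 4130 to 4784 CPM with cytochalasin D and 5224 to 5762 CPM in the control. Most of these sums came from Vim, at a mean of 3276 and 4331 CPM, while Fn1 was at 966 and 1027 CPM. Over 8 epithelial markers the sums were 1.06 to 1.47 and 6.43 to 8.01 CPM. Most of these came from Cdh1 alone, at 1.05 and 6.79 CPM. The part of these shifts in the changes of members was not tested.

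The LIM proteins of stress fibres and focal adhesions led. Pdlim5, an actin and kinase scaffold also called ENH, stood at 312, 329.6, 334 and 362 CPM in cytochalasin D libraries, against 75.1, 67.8, 63.4 and 60.7 CPM in control libraries. Zyx, zyxin, which recruits actin assembly factors to strained filaments, stood at 360.4, 345, 318 and 296 CPM with cytochalasin D, against 65.6, 71.1, 73.2 and 73.5 CPM in the control. Csrp1, a crosslinker partner of alpha-actinin, stood at 523, 531, 554 and 509 CPM with cytochalasin D, against 219, 223, 223 and 229 CPM in the control. In all 3, the lowest cytochalasin D library stood above the highest control library. Pdlim5 rose 4.99-fold (log2 2.32, SE 0.06, adjusted p = 7.66e-19), Zyx 4.66-fold (log2 2.22, SE 0.07, adjusted p = 1.52e-17) and Csrp1 2.37-fold (log2 1.24, SE 0.04, adjusted p = 2.04e-17). By p-value they ranked 3, 7 and 8 among all genes tested.

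**Figure D2:**
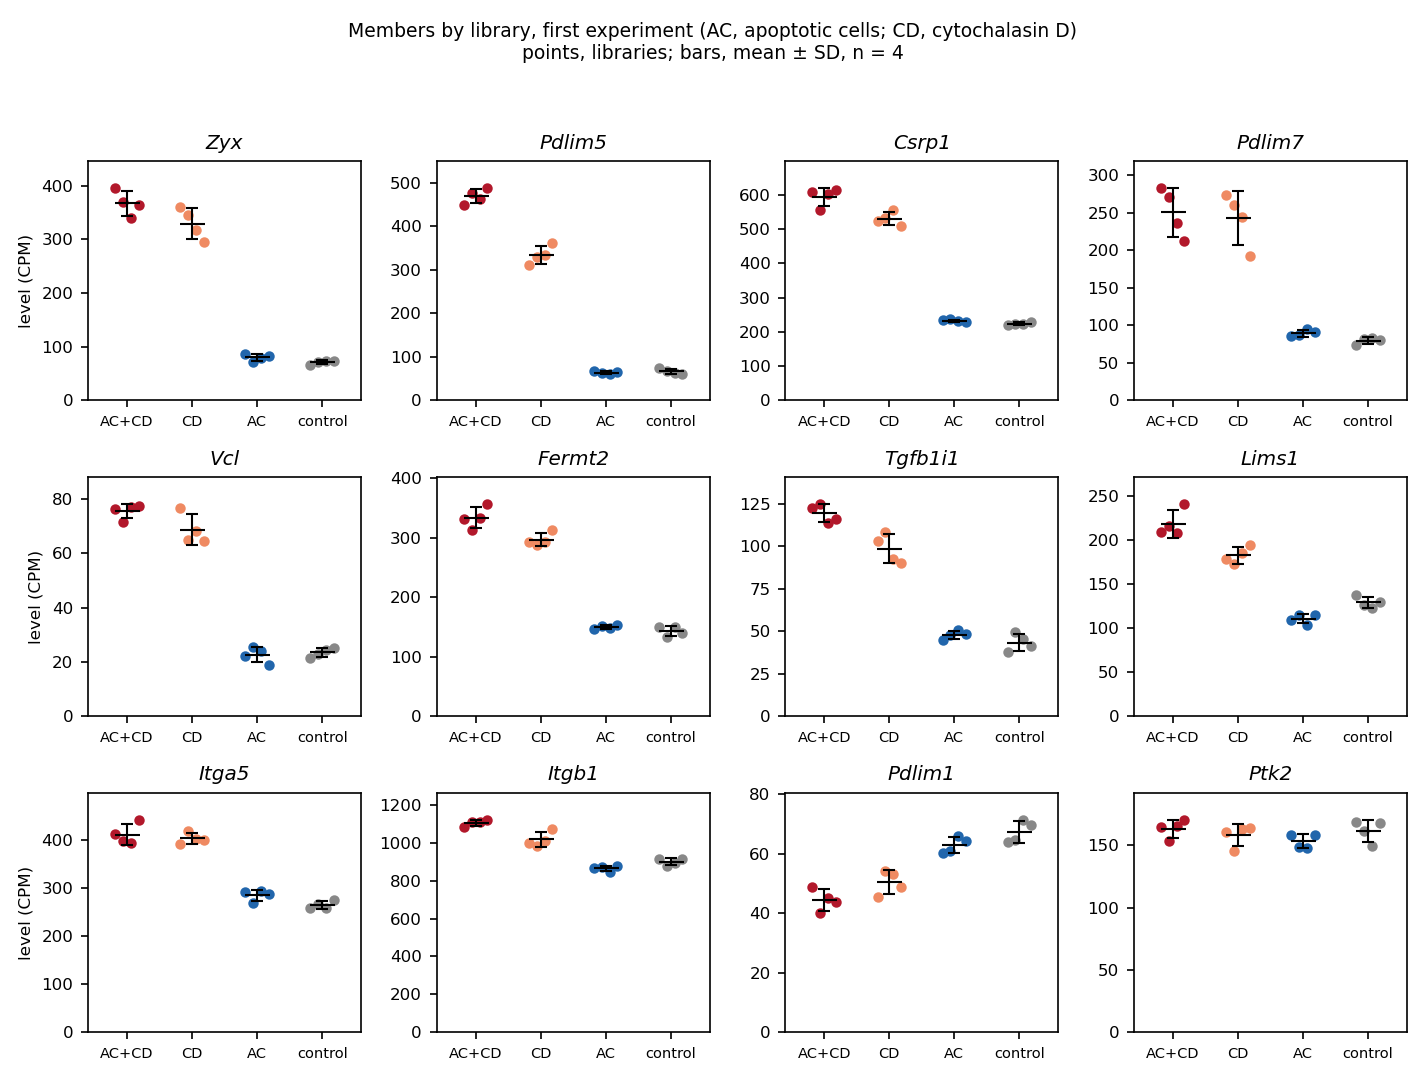
Level (CPM, axes from 0) of 12 members in each library of the first experiment, with mean and SD of 4 libraries (AC, apoptotic cells; CD, cytochalasin D). Zyx, Pdlim5, Csrp1, Pdlim7, Vcl, Fermt2 and Tgfb1i1 stand apart with and without cytochalasin D, Pdlim1 is lower with it, and Ptk2 overlaps between all groups.

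Of the 14 LIM proteins on actin, 8 rose and 2 fell with cytochalasin D. Pdlim7, Enigma, rose 3.05-fold, to 274, 261, 244 and 193 CPM, against 73.3, 81.7, 83.6 and 80.5 CPM in control libraries. Its spread was wide with the drug, at 243 ± 35.6 CPM, yet the groups did not overlap. Fhl3 and Fhl2, cofactors built of LIM domains, reached 1.90-fold and 1.75-fold, Lpp, a zyxin relative, 1.35-fold, and Lasp1, an actin-binding adaptor, 1.10-fold. The direction was opposite for Pdlim1, an alpha-actinin partner also called CLP36, and Fhl1. Pdlim1 was at 50.4 ± 4.02 CPM with cytochalasin D and 67.4 ± 3.67 CPM in the control, and Fhl1 at 66.8 ± 3.21 and 81.1 ± 4.02 CPM (SD, n = 4 each), with no overlap between groups for either gene. Csrp2, Csrp3, Pdlim2 and Pdlim4 did not pass the test, the last 3 at levels under 5 CPM.

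Among the links between integrins and actin, 4 of 7 rose. Vcl, vinculin, which locks talin to actin, stood at 76.7, 64.9, 68.3 and 64.5 CPM with cytochalasin D, against 21.4, 23.0, 24.4 and 25.3 CPM in the control. It rose 2.93-fold (log2 1.55, SE 0.08, adjusted p = 5.68e-13). Fermt2, kindlin-2, which activates integrins from the cytoplasmic side, stood at 293, 287, 294 and 313 CPM, against 150.2, 133, 149.6 and 141 CPM, a 2.07-fold rise. For both genes every drug-treated library lay above every control library. Actn1, the non-muscle alpha-actinin crosslinker of stress fibres, rose 1.76-fold and Tln1, talin 1, 1.44-fold. Their close relatives did not pass: the log2 change was 0.02 for Actn4 (95% interval -0.08 to 0.12) and 0.04 for Tln2 (95% interval -0.08 to 0.16). Exons of Actn4 share 832 bases with Capn12 on the other strand, and counting took no account of strand.

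In the ILK complex, Ilk, the pseudokinase at its centre, rose 1.71-fold and Lims1, the adaptor PINCH1, 1.41-fold. The parvins, which bind actin for the complex, did not pass, with log2 changes of 0.06 for both Parva (95% interval -0.01 to 0.13) and Parvb (95% interval -0.06 to 0.18). The order of levels turned with these changes. Ilk stood at 165 ± 5.80 CPM per kb and Parva at 143 ± 7.54 with cytochalasin D, against 96.7 ± 2.63 for Ilk and 137 ± 2.60 for Parva in the control. Of the signalling proteins, Tgfb1i1, the paxillin relative Hic-5, stood at 103, 108, 92.6 and 90.2 CPM, against 37.6, 49.3, 45.3 and 41.2 CPM in the control, a 2.27-fold rise without overlap. Bcar1, the p130Cas scaffold, rose 1.21-fold. Paxillin itself (Pxn, log2 -0.01, 95% interval -0.11 to 0.08) and the kinase FAK (Ptk2, log2 -0.03, 95% interval -0.13 to 0.06) did not pass.

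Of the 10 integrin subunits, 4 rose, among them the selected-for Itga8, and 2 fell. Itga5 rose 1.52-fold, to 391, 419, 401 and 399 CPM with cytochalasin D, against 259, 266, 258 and 274 CPM in the control (adjusted p = 7.36e-11). Itgb1 rose 1.13-fold (1017 ± 38.5 CPM against 899 ± 18.2 CPM, adjusted p = 0.000121). Itgb4, the beta chain of hemidesmosomes, fell to 60.9, 65.1, 59.8 and 53.2 CPM, against 75.5, 82.3, 83.0 and 82.4 CPM in the control. The 2 beta chains thus moved in opposite directions, each without overlap between groups. Itga8 counted 20, 10, 8 and 18 fragments in cytochalasin D libraries, against 2, 2, 2 and 4 in control libraries, too few for a fold change, and it counts among the 8 members with a fitted change of at least 2-fold.

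The calls of 3 weakly changed members lay near the threshold. Itgav, higher with cytochalasin D (log2 0.20, adjusted p = 0.0279), lost its call without control library 2, 3 or 4 (adjusted p = 0.0793, 0.0567 and 0.0694) and without cytochalasin D library 4, where the change was 0.11 (adjusted p = 0.177). Itga6, lower (log2 -0.20, adjusted p = 0.046), lost it without cytochalasin D library 1, 3 or 4, control library 2 or 4, or apoptotic library 3, with changes of -0.23 to -0.16 and adjusted p between 0.0524 and 0.147. Without all 5 libraries named above the change of Itga6 was -0.09 (adjusted p = 0.507). Itgb1bp1, an integrin tail-binding protein and higher (log2 0.22, adjusted p = 0.0283), lost its call without cytochalasin D library 1, 2 or 3 or control library 1 or 3, with changes of 0.18 to 0.22 and adjusted p between 0.0524 and 0.112.

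With apoptotic cells present, cytochalasin D gave much the same picture. Against apoptotic cells alone, 22 members rose and 7 fell, where 16.4% of all genes rose and 16.1% fell. At least 2-fold higher were 10 members, or 9 of 39 without Itga8 and Actn2, against 1.4% of all genes. The median log2 change was 0.27 over the members and 0.00 over all genes. The counts were also 22 and 7 without the 3 lowest libraries, and 22 and 4 without all 5. This comparison shares no library with cytochalasin D against control. Of the members called, 20 rose in both and 3 fell in both, and none was called in opposite directions, and the log2 changes of the 41 members correlated with a Pearson r of 0.87 and a Spearman rho of 0.88. Without Itga8 and Actn2, whose differences were built into their selection, 19 rose in both and 3 fell in both, and the values were 0.97 and 0.94 over 39 members. Genes fitted in 1 model are not independent points, so these values are a description. The 12 fibroblast markers summed to 4195 to 4664 CPM with apoptotic cells and cytochalasin D, and to 6406 to 6915 CPM with apoptotic cells alone. Vim made up most of each sum, at 3245 and 5415 CPM. The part of this shift in the changes of members was not tested.

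Pdlim5 moved furthest of the members, and its p-value was the smallest among all 13106 genes, of which 10 had a larger rise. It stood at 449.7, 478, 464 and 489 CPM with apoptotic cells and cytochalasin D, against 67.2, 63.7, 60.6 and 64.4 CPM with apoptotic cells alone, a 7.35-fold rise (log2 2.88, SE 0.06, adjusted p = 2.56e-20). Zyx rose 4.57-fold (368 ± 23.4 CPM against 80.5 ± 6.46 CPM), Vcl 3.34-fold (75.5 ± 2.68 against 22.7 ± 2.84), Pdlim7 2.80-fold (251 ± 32.5 against 89.7 ± 4.49) and Csrp1 2.56-fold (594 ± 26.6 against 232 ± 3.36). Tgfb1i1 rose 2.49-fold, Fermt2 2.22-fold, Fhl2 2.17-fold and Fhl3 2.07-fold. None of these overlapped between its groups.

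Of the integrin subunits, 5 rose, among them the selected-for Itga8, and 2 fell. Itga5 rose 1.44-fold, Itgav 1.30-fold and Itgb1 1.28-fold. Itga1 rose 1.59-fold, at 6.19, 5.88, 5.68 and 5.92 CPM against 2.95, 4.78, 3.54 and 3.65 CPM with apoptotic cells alone. Itgb4 fell to 53.4, 50.9, 50.0 and 47.7 CPM, against 73.5, 74.0, 79.2 and 78.4 CPM (adjusted p = 5.2e-08). Itga3 fell to 30.3, 28.4, 29.6 and 28.8 CPM, against 35.1, 37.2, 37.4 and 36.7 CPM (adjusted p = 0.000388), and Pdlim1 to 44.4 ± 3.61 CPM, against 62.9 ± 2.72 CPM. Itga6 (adjusted p = 0.0912) and Itga7 did not pass.

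Several calls in this comparison lay near the threshold. Actn4, lower at a log2 change of -0.16 and an adjusted p of 0.018, lost its call without apoptotic library 3 or 4 (adjusted p = 0.0743 and 0.0506). Fhl1, lower at 0.0406, lost it without 6 single libraries, among them apoptotic libraries 3 and 4 and combined libraries 1 to 3, with changes of -0.16 to -0.13 and adjusted p up to 0.101. Pxn, lower at 0.0446, lost it without 9 single libraries from all 4 groups, with changes of -0.14 to -0.11 and adjusted p up to 0.108, and with the replicate block (adjusted p = 0.0542). Actn2 counted 6, 5, 7 and 1 fragments with apoptotic cells and cytochalasin D, against 16, 14, 14 and 20 with apoptotic cells alone. Itga8 counted 7, 8, 7 and 3, against 0, 2, 1 and 4. The calls of both were lost without 4 single libraries each, and 21 members rose and 6 fell without these 2 low members.

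**Figure D3:**
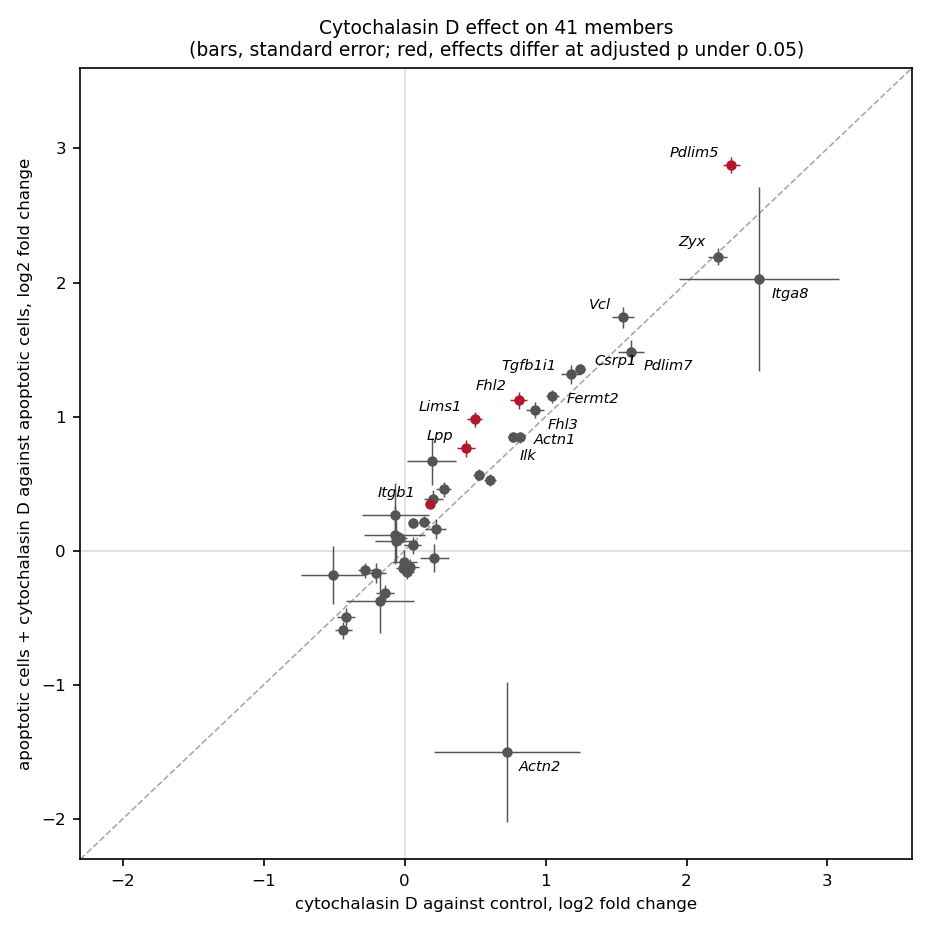
Log2 fold change of the 41 members with cytochalasin D when apoptotic cells are present (vertical) and absent (horizontal), with standard errors and the line of equal effect. Pdlim5 lies above the line at 2.88 and 2.32, Lims1, Lpp, Fhl2 and Itgb1 are the other members whose effects differ at an adjusted p under 0.05, and Actn2, with few counts, lies far below it.

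The difference between these effects of cytochalasin D was itself tested. It was positive for 5 members and negative for none (edgeR, adjusted p under 0.05), where 3.03% of all genes passed as positive and 1.53% as negative. At an unadjusted p under 0.05 it was positive for 8 members and negative for 2, DESeq2 gave the same 5 and 0, and without the 3 lowest libraries 6 and 0 passed, and without all 5, 5 and 0. The difference was 0.56 on the log2 scale for Pdlim5 (SE 0.08, adjusted p = 0.000221) and 0.48 for Lims1 (SE 0.08, adjusted p = 0.000601). Both passed whichever single library was left out. For Lpp (0.33, SE 0.09, adjusted p = 0.0395), Fhl2 (0.31, SE 0.09, adjusted p = 0.0382) and Itgb1 (0.17, SE 0.04, adjusted p = 0.0271) the calls were lost without 12, 10 and 7 single libraries from all 4 groups. Without all 5 libraries the difference for Fhl2 was 0.12 (adjusted p = 0.488). With 1 library left out, the adjusted p reached 0.0991 for Lpp without apoptotic library 3, 0.0895 for Fhl2 without control library 1 and 0.064 for Itgb1 without apoptotic library 3.

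Apoptotic cells alone moved few members. Against the control, none rose and 3 fell (edgeR, adjusted p under 0.05), where 6.97% of all genes rose and 6.68% fell. At an unadjusted p under 0.05, 4 were higher and 7 lower, and DESeq2 also called 0 and 3. Without the 3 lowest libraries 3 rose and 5 fell, and without all 5 libraries 4 rose and 5 fell. Lims1 fell to 109.9, 115, 104 and 115 CPM with apoptotic cells, against 138, 126, 124 and 129.8 CPM in the control (log2 -0.22, SE 0.05, adjusted p = 0.00778). Its groups did not overlap. Parva fell to 518 ± 14.0 CPM, against 570.4 ± 10.8 CPM (adjusted p = 0.0166), and Lasp1 to 334 ± 8.64 CPM, against 364 ± 9.49 CPM (adjusted p = 0.0409). The call of Parva was lost without apoptotic library 4 (adjusted p = 0.0593) or control library 1 (adjusted p = 0.0532), and that of Lasp1 without any 1 of the 4 apoptotic libraries or control library 1, 3 or 4, with adjusted p up to 0.105. With a trend of counts with gene length removed, Parva (log2 -0.09, adjusted p = 0.081) and Lasp1 (log2 -0.11, adjusted p = 0.0703) also lost their calls. Itga5 was at 285 ± 11.2 CPM with apoptotic cells and 264 ± 7.63 CPM in the control, and did not pass (adjusted p = 0.0832), but passed without all 5 libraries (adjusted p = 0.0298). Zyx was at 80.5 ± 6.46 and 70.8 ± 3.68 CPM and did not pass (adjusted p = 0.0645), but passed without all 5 (adjusted p = 0.027). The 12 fibroblast markers summed to 6406 to 6915 CPM with apoptotic cells and 5224 to 5762 CPM in the control. The part of this shift in the changes of members was not tested.

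Under cytochalasin D, the members called with apoptotic cells were led by Pdlim5. Against cytochalasin D alone, 7 members rose and 4 fell, where 4.82% of all genes rose and 3.79% fell. Without the 3 lowest libraries 8 rose and 2 fell, and without all 5 libraries 3 rose and 2 fell. In fits of the 8 compared libraries alone, 6 rose and 1 fell here, and 3 rose and 6 fell with apoptotic cells in the absence of the drug. Pdlim5, given by library above, rose a further 1.40-fold, to 470.1 ± 17.2 CPM against 334 ± 20.6 CPM (adjusted p = 1.2e-06). Fhl2 stood at 132, 111, 114 and 126 CPM, against 96.5, 101, 108 and 93.0 CPM with cytochalasin D alone, a 1.22-fold rise (adjusted p = 0.00307). Lims1 stood at 210.0, 216, 208 and 242 CPM, against 178, 173, 185 and 195 CPM, a 1.20-fold rise (log2 0.26, SE 0.05, adjusted p = 0.00239). Lims1 was thus lower with apoptotic cells in the absence of cytochalasin D and higher with them in its presence. Csrp1 rose 1.12-fold (adjusted p = 0.00458), Tgfb1i1 1.21-fold, Fermt2 1.13-fold and Itgb1 1.09-fold. Without all 5 libraries the calls of Fhl2 (log2 0.11, adjusted p = 0.41), Csrp1 (log2 0.09, adjusted p = 0.284), Tgfb1i1 (adjusted p = 0.141) and Fermt2 (adjusted p = 0.136) were lost.

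Itga3 fell by 0.26 on the log2 scale under cytochalasin D when apoptotic cells were added (adjusted p = 0.0115), and Itgb4 by 0.24 (adjusted p = 0.0155). Both calls were lost in the fit of the 8 compared libraries (adjusted p = 0.0532 and 0.0534). That of Itga3 was also lost without the 3 lowest libraries (adjusted p = 0.0687) and without all 5 (adjusted p = 0.0725). Pxn fell to 64.6, 65.6, 63.4 and 66.7 CPM, against 80.0, 72.1, 73.0 and 73.4 CPM with cytochalasin D alone (adjusted p = 0.0134). Without all 5 libraries the call of Pxn was lost (log2 -0.17, adjusted p = 0.202). The call of Itgb1, higher here, was lost in the fit of the 8 compared libraries (adjusted p = 0.0534). Several of these smaller calls were lost without single libraries. This held for Tgfb1i1 without cytochalasin D library 3 (adjusted p = 0.0516), for Itgb1 without cytochalasin D library 2 or 3 (adjusted p = 0.0554 and 0.0501), and for Pxn without cytochalasin D library 1 or combined library 3 (adjusted p = 0.0553 and 0.0509). It also held for Fermt2 without cytochalasin D library 2 or 3 or combined library 4 (adjusted p = 0.06, 0.0527 and 0.0792) and for Itgb4 without cytochalasin D library 2 or combined library 4 (adjusted p = 0.0703 and 0.0629). Tln2, lower at 0.0445, lost its call without 10 single libraries, with adjusted p up to 0.157 without cytochalasin D library 2.

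**Figure D4:**
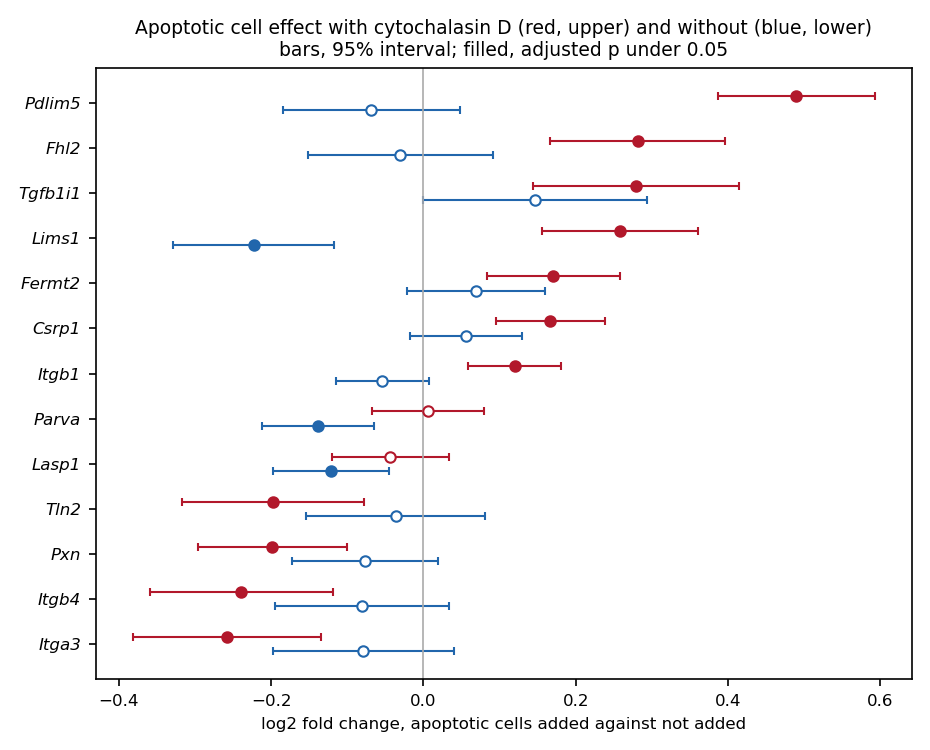
Log2 fold change on adding apoptotic cells for the 13 members called in either setting, with cytochalasin D (red, upper point) and without (blue, lower point), with 95% intervals and filled points at an adjusted p under 0.05. Pdlim5 stands at 0.49 with the drug and -0.07 without, and Lims1 at 0.26 and -0.22.

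Some T cell transcripts were higher where apoptotic cells were added in the first experiment. Of 7 T cell markers tested, 3 rose and 0 fell with apoptotic cells, where 6.97% of all genes rose. Under cytochalasin D also 3 rose and 0 fell with apoptotic cells, where 4.82% of all genes rose. Summed over 17 T cell markers, libraries held 43.8 to 48.9 CPM with apoptotic cells and cytochalasin D, against 34.4 to 41.2 CPM with cytochalasin D. They held 43.0 to 45.6 CPM with apoptotic cells, against 34.8 to 37.4 CPM in the control. Most of each sum came from Tcf7 and Lat, which had counts in every group. Tcf7 was at 23.0 CPM with apoptotic cells and 23.7 CPM in the control, and Lat at 11.1 and 11.0 CPM. Lck, a T cell kinase, was at 3.07 CPM with apoptotic cells and cytochalasin D against 0 with cytochalasin D, and at 3.20 CPM with apoptotic cells against 0.0259 in the control. In the second experiment, where all cells were given apoptotic cells, Lck was at 0.0495 CPM in Slc12a2-deficient and 0.0585 CPM in wildtype cells. Zap70, another T cell kinase, was at 0 CPM in both, against 3.35 CPM with apoptotic cells in the first experiment. Of the defining receptor genes, Cd3g had no count in any group and Cd3e was at 0.322 CPM at most. The part of these transcripts in the changes of members with apoptotic cells was not tested.

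**Figure D5:**
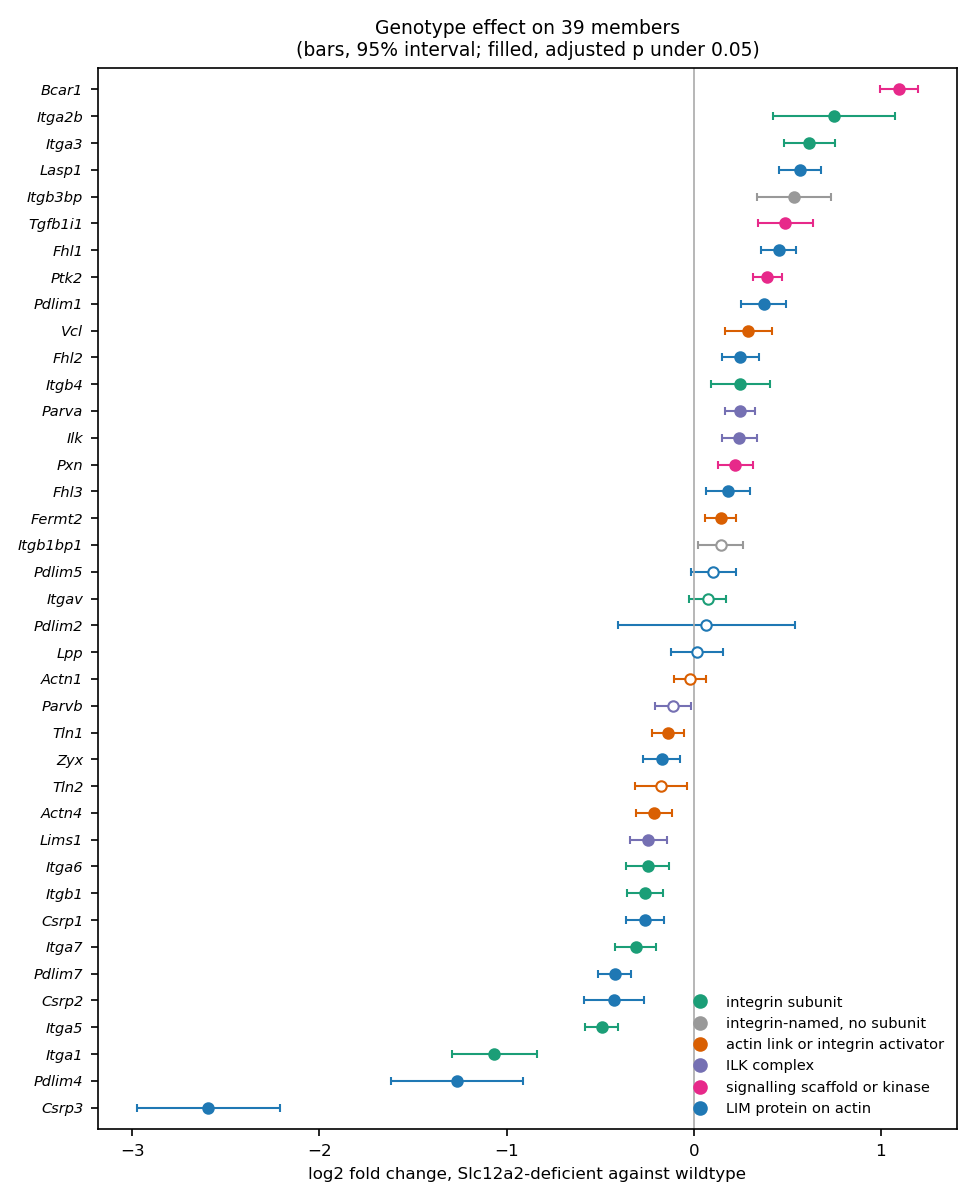
Log2 fold change of the 39 members tested in Slc12a2-deficient against wildtype cells, with 95% intervals, coloured by role and filled at an adjusted p under 0.05. Bcar1 stands highest at 1.10, all 4 signalling proteins lie above 0, and Csrp3, Pdlim4 and Itga1 lie lowest.

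Cells deficient in Slc12a2, the chloride importer NKCC1, differed from wildtype cells in both directions over the members. The number of clones is not given, so an effect of Slc12a2 loss cannot be told apart from other differences between the lines. In sorted, engulfing cells, 17 of 39 members rose and 14 fell in deficient against wildtype cells (edgeR, adjusted p under 0.05), where 21.1% of the 13050 genes tested rose and 21.3% fell. The median log2 change was 0.07 over the members and 0.00 over all genes, and the median absolute change was 0.25 against 0.17. At least 2-fold higher was 1 member, against 1.49% of all genes, and at least 2-fold lower were 3, against 3.91%. With library numbers 9 to 12 and 13 to 16, which differed from each other in both genotypes, as a term, 17 rose and 15 fell.

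The signalling proteins rose as a group, 4 of 4. Bcar1 stood at 215, 226, 227 and 230.2 CPM in Slc12a2-deficient cells, against 114, 109, 99.1 and 98.7 CPM in wildtype cells. It rose 2.14-fold (log2 1.10, SE 0.05, adjusted p = 1.88e-10). Ptk2, FAK, stood at 198, 204, 207 and 208 CPM, against 155, 155, 153 and 158 CPM, a 1.31-fold rise (adjusted p = 1.11e-06). Tgfb1i1 rose 1.40-fold (36.1 ± 3.30 CPM against 25.7 ± 2.13 CPM) and Pxn 1.17-fold (62.2 ± 1.86 against 53.3 ± 2.49). None of the 4 overlapped between genotypes. The call of Pxn was not reached in library numbers 9 to 12 alone (adjusted p = 0.0727), with 2 libraries per genotype.

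Integrin subunits split by chain. The fibronectin pair was lower, with Itga5 at 292, 298, 299 and 286 CPM in deficient cells, against 389.6, 410.4, 415 and 438 CPM in wildtype cells (0.711 of wildtype, log2 -0.49, SE 0.04, adjusted p = 2.94e-07). Itgb1 was at 1081 ± 63.1 CPM in deficient cells and 1293 ± 51.1 CPM in wildtype cells (adjusted p = 0.000552). Itga1 stood at 7.23, 4.92, 7.90 and 7.41 CPM, against 13.7, 14.7, 13.6 and 15.3 CPM in wildtype cells (adjusted p = 2.43e-06). Itga7 and Itga6 fell by 0.31 and 0.25 on the log2 scale. Higher in deficient cells was Itga3, at 32.7, 31.1, 26.6 and 28.6 CPM against 19.7, 20.1, 18.9 and 18.7 CPM in wildtype cells, a 1.53-fold rise (adjusted p = 3.58e-06). Itga2b rose 1.68-fold at a low level (3.59 ± 0.648 CPM against 2.14 ± 0.412 CPM). Itgav did not pass (log2 0.07, 95% interval -0.02 to 0.17). Itgb4, higher at an adjusted p of 0.0218, lost its call without deficient library 1 or 2 or wildtype library 3 or 4, with adjusted p between 0.0507 and 0.0763. In library numbers 13 to 16 alone its log2 change was 0.11 (adjusted p = 0.208).

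The LIM proteins also went both ways, with 5 of 14 higher and 6 lower. Csrp3, the muscle LIM protein, was at 1.36, 0.947, 0.790 and 0.621 CPM in deficient cells, against 6.27, 6.57, 4.63 and 5.08 CPM in wildtype cells. Pdlim4, also called RIL, was at 1.11, 1.49, 0.970 and 0.976 CPM, against 3.14, 2.81, 2.80 and 2.26 CPM. Both were low in both genotypes and did not overlap between them, at 0.166 and 0.416 of wildtype (adjusted p = 3.53e-08 and 3.81e-05). Pdlim7 fell to 49.4, 49.2, 48.2 and 48.6 CPM, against 67.2, 65.2, 63.3 and 66.2 CPM (adjusted p = 1.42e-06). Csrp2 fell by 0.43 on the log2 scale, and Csrp1 fell to 123 ± 5.99 CPM, against 148 ± 9.04 CPM (adjusted p = 0.000613 for Csrp2 and 0.000919 for Csrp1). Zyx was at 59.6, 65.1, 60.8 and 61.1 CPM, against 72.9, 70.9, 65.1 and 68.7 CPM (adjusted p = 0.0117). Its call was lost without wildtype library 1 (adjusted p = 0.0507) and in library numbers 13 to 16 alone (adjusted p = 0.0518). Pdlim5 did not pass (log2 0.10, 95% interval -0.02 to 0.22). Lasp1 rose 1.48-fold, Fhl1 1.37-fold and Pdlim1 1.30-fold, and Fhl2 and Fhl3 by less. The call of Fhl3 was lost without deficient library 2 or wildtype library 2 or 3 (adjusted p = 0.0656, 0.0652 and 0.0646), and in library numbers 13 to 16 alone its log2 change was 0.10 (adjusted p = 0.233).

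Among the linkers, Vcl rose 1.22-fold and Fermt2 1.11-fold in deficient cells, while Actn4 and Tln1 fell, and Actn1 and Tln2 did not pass. Fermt2 passed neither in library numbers 9 to 12 alone (adjusted p = 0.0786) nor in 13 to 16 alone (adjusted p = 0.0584). Tln1, at an adjusted p of 0.0191, lost its call without deficient library 3 or wildtype library 2 or 4 (adjusted p = 0.0712, 0.1 and 0.0565), and in library numbers 9 to 12 alone (adjusted p = 0.287). In the ILK complex, Parva and Ilk rose 1.19-fold and 1.18-fold, while Lims1 fell to 168 ± 11.6 CPM, against 199 ± 4.63 CPM in wildtype cells (adjusted p = 0.0011). Of 7 fibroblast markers tested, 1 rose and 6 fell with the genotype. Summed over all 12 markers, deficient libraries held 4001 to 4310.4 CPM and wildtype libraries 4161 to 4459 CPM. Within these sums Vim was at 3401 CPM in deficient and 2961 CPM in wildtype cells, and Fn1 at 654 and 1247 CPM. The part of these markers in the changes of members was not tested.

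Set beside the effect of cytochalasin D against control, from other libraries, the genotype effect showed no common direction over 39 members (Pearson r 0.01, Spearman rho -0.15). Of the members that rose with cytochalasin D, 8 rose and 7 fell in deficient cells. Vcl, Fermt2, Tgfb1i1, Bcar1 and Ilk rose in both comparisons, while Zyx, Csrp1, Pdlim7, Itga5 and Itgb1 rose with cytochalasin D and fell in deficient cells.

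Other genes of the adhesion machinery are read against the same shares of all genes, 13.5% higher and 12.8% lower with cytochalasin D, 6.97% and 6.68% with apoptotic cells, and 21.1% and 21.3% in Slc12a2-deficient cells. The lists were written with earlier results of these data known, so their counts are a description. Of 11 members named as serum response factor targets, 9 rose and 1, Fhl1, fell with cytochalasin D, with a median log2 change of 1.18. Of the other 30 members, 12 rose and 3 fell, with a median of 0.10. Of 27 serum response factor targets outside the members, 22 rose with cytochalasin D and none fell (median 0.40), and with apoptotic cells present 21 rose and 1 fell (median 0.50). The cytoplasmic actins led these by level, Actg1 at 7784 ± 659 CPM with cytochalasin D and 795 ± 94.6 CPM in the control, and Actb at 13726 ± 578 and 4350.3 ± 94.8 CPM. Of the same 27 and 28 genes, 3 rose and 1 fell with apoptotic cells, and 6 rose and 6 fell in Slc12a2-deficient cells.

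Of 56 other focal adhesion proteins, 19 rose and 9 fell with cytochalasin D (median log2 change 0.07). Src, the kinase that acts with FAK, rose 2.05-fold and Flna, filamin A, 1.83-fold, while Ajuba, another LIM protein, was at 161 ± 5.56 CPM with the drug and 336 ± 11.0 CPM in the control. With apoptotic cells, 7 rose and 9 fell, and in Slc12a2-deficient cells 15 of 55 rose and 14 fell. Palld, palladin, a partner of alpha-actinin, was at 68.8 ± 2.80 CPM in deficient cells and 142 ± 8.02 CPM in wildtype cells.

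Among integrin ligands, 4 of 25 rose and 3 fell with cytochalasin D, close to the shares of all genes. Cyr61, a matricellular ligand, rose 2.59-fold, and Ctgf, its relative, was at 6.36 ± 2.04 CPM with cytochalasin D and 20.2 ± 0.273 CPM in the control. Thbs1, thrombospondin 1, was at 977 ± 75.0 CPM with apoptotic cells and cytochalasin D and 273 ± 12.4 CPM with cytochalasin D, a 3.57-fold rise. In Slc12a2-deficient cells 5 of 27 ligands rose and 16 fell, with a median log2 change of -0.22. Postn, periostin, a ligand of alpha V integrins, was at 30.4 ± 1.94 CPM in deficient cells and 564 ± 53.0 CPM in wildtype cells (adjusted p = 7.14e-15).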

How the data were processed

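The authors deposited raw fragment counts per gene name. Per the file headers, these came from featureCounts 1.5.0, summed over exons without strand. The submitters' processing notes also list FastQC, STAR and DESeq2, with no version. No source used here gives the genome build, so no coordinates are printed. Per the labels, mRNA libraries were made from total RNA and read as 75-base pairs. An entry with a blank gene name held 0.0249 to 0.0445% of counts in the first experiment and 1.13 to 1.65% in the second, and was left out.

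Each experiment was fitted alone on all genes with edgeR 4.0.16 in R 4.3.3 (TMM factors, filterByExpr with a minimum count of 10 and total of 15, quasi-likelihood F test on group). Calls needed a Benjamini-Hochberg adjusted p under 0.05. Biological coefficients of variation were 7.04% and 6.06%. Standard errors are the log2 change over the square root of F, and 95% intervals are 1.96 standard errors wide on each side. A floor of 3 counts was 0.156 to 0.368 CPM in the first experiment and 0.108 to 0.133 CPM in the second, and covers counting error only. Levels per kb use the gene length in the deposited tables. All reported tests used the deposited counts, and the fitting steps were also checked on simulated data. Alternatives were DESeq2 1.42.0, other scaling, filters and thresholds, removal of a length trend, fits of the compared libraries alone, a replicate block and leaving out each library.

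The members and the gene lists, written from general knowledge, were chosen with earlier results of these data known. The named genes were the 3 markers Zyx, Pdlim5 and Csrp1, the integrin subunits, up to 8 called members per direction and comparison, and up to 4 called genes per direction of each other list. Further members, and the subset of list genes printed, were picked after their values were seen. Some items are not reported here.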

Additional observations from a re-analysis of the deposited data

Results flagged for a closer look

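In 5 members the effect of cytochalasin D differed between cells with and without apoptotic cells by the test of that difference, at 0.56 for Pdlim5, 0.48 for Lims1, 0.33 for Lpp, 0.31 for Fhl2 and 0.17 for Itgb1 on the log2 scale.

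In 10 of 235 groups of 4 libraries examined, 1 library stood far from the other 3, where chance alone gives about 1 in 20. With apoptotic cells, library 2 had 20.4 CPM of Itga7, with the others at 22.3 to 22.6 CPM, and library 1 had 443 CPM of Tln1, with the others at 455 to 457 CPM. With apoptotic cells and cytochalasin D, library 1 had 7.22 CPM of Itgb3bp, with the others at 8.46 to 8.49 CPM. With cytochalasin D, library 3 had 64.6 CPM of Parvb, with the others at 71.7 to 72.7 CPM, and library 1 had 80.0 CPM of Pxn, with the others at 72.1 to 73.4 CPM. In the control, library 1 had 75.5 CPM of Itgb4, with the others at 82.3 to 83.0 CPM. Among Slc12a2-deficient libraries, library 1 had 423 CPM of Tln1, with the others at 401 to 404 CPM. Among wildtype libraries, library 3 had 30.8 CPM of Pdlim1 (others 33.3 to 33.4) and 31.3 CPM of Vcl (others 34.9 to 35.5), and library 1 had 1.69 CPM of Pdlim2 (others 1.35 to 1.38).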

How the results depend on the processing

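Counts of members called with cytochalasin D against control, and for genotype, stayed within 1.5 times their values under DESeq2, relative log expression factors, no filter, 1 CPM in 4 libraries, an adjusted p under 0.01, length-trend removal and, for genotype, a term or a split by library numbers. Leaving out 1 library gave 19 to 21 higher and 3 to 5 lower for cytochalasin D, 21 to 22 and 3 to 7 for cytochalasin D with apoptotic cells, 15 to 18 and 13 to 14 for genotype, 0 to 3 and 1 to 5 for apoptotic cells, 4 to 8 and 2 to 4 for apoptotic cells under cytochalasin D, and 2 to 7 and 0 to 2 for the difference between effects. For apoptotic cells, members called higher numbered 3 without the 3 lowest libraries on the first component, 4 without these and the 2 highest, 3 with the 8 compared libraries, 2 with the length trend removed, 1 with no filter and 1 with the replicate block, and members called lower 5, 5 and 6 in the first 3 of these and 1 at an adjusted p under 0.01. Under cytochalasin D they numbered 2 lower without the 3 libraries, 3 higher and 2 lower without the 5, and 1 lower with the 8 compared libraries, and at an adjusted p under 0.01, 4 higher and 0 lower. At that threshold 3 members were lower with cytochalasin D and apoptotic cells (4 without the 5 libraries), and 2 differed between effects. The cause of these shifts was not tested. Of 2741 single-gene values under alternatives, 2563 kept their direction and side of the threshold, 153 lost and 25 gained a call, and 0 reversed. Removal of the 3 or 5 libraries and the term and split by library numbers were chosen after seeing the data.

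Replicate numbers are shared by the 4 groups of the first experiment, but the labels give no pairing, so the numbers were not taken as pairs. Deviations of same-numbered libraries correlated between -0.09 and 0.27 (median 0.01), and of others between -0.31 and 0.20 (median -0.01). Of 16 libraries, 7 correlated best with their own number. These values cannot settle whether libraries were paired. Library 4 of the cytochalasin D and combined groups correlated most, at 0.27, and library 1 of the same groups next, at 0.25. With the replicate block, 1 member (against 0) showed a negative difference between effects, 21 rose and 4 fell with cytochalasin D, and Pxn lost its call with cytochalasin D and apoptotic cells (adjusted p = 0.0542). The genotypes share no library numbers, and the term for library numbers 9 to 12 and 13 to 16 gave 17 higher and 15 lower.

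Depth limits Itga8, Actn2, Itga2b, Pdlim2, Pdlim4 and Csrp3, whose group means lie under 6 CPM. It also limits Itga1 in the first experiment, with group means of 3.73 to 5.92 CPM.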
